A study of Homo sapiens with 17 samples.

Results

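The 40 genes described here encode the subunits of the human 26S proteasome, its alternative activators, factors that help to assemble it, and NFE2L1, a transcription factor that drives these genes. They were chosen by name, as the constitutive subunits, activators and assembly factors of the particle with NFE2L1. Earlier results of these data were known at that time. Of the 40, 35 were measured among 19775 genes in all. PSMA6, PSMC5, PSMD7, PSMD13 and PSME2 have no probe set annotated to them alone and are not analysed here. Where several probe sets are annotated to a gene alone, the one with the highest mean signal stands for it. Levels are log2 signals.

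The RNA came from L363, an established line of human multiple myeloma, a cancer of antibody-secreting plasma cells. Untreated cells (control) were compared with cells given 0.5 uM MS275, an inhibitor of class I histone deacetylases, with cells given 1 or 10 nM rapamycin, an inhibitor of the kinase mTOR, and with cells given MS275 together with either dose of rapamycin (the 1 nM and the 10 nM combination). All cells were taken at 48 hours. Each group holds 3 arrays except the 10 nM combination, which holds 2 because 1 array failed the submitters' quality control. All arrays are of 1 cell line, and nothing in the labels ties the replicates to separate cultures, so p-values measure the spread between these arrays, which may be technical.

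The 26S proteasome degrades proteins tagged with ubiquitin. Its barrel-shaped 20S core stacks rings of alpha subunits, which form the gate, around rings of beta subunits, among which PSMB5, PSMB6 and PSMB7 carry the proteolytic sites. The 19S cap binds the barrel, removes the ubiquitin chain and unfolds the substrate with a ring of ATPases (the PSMC genes) held by non-ATPase subunits (the PSMD genes). Myeloma cells secrete large amounts of antibody and depend on this particle, and the drug bortezomib acts by binding PSMB5. When the proteasome is inhibited, NFE2L1 escapes its own degradation and raises the transcription of subunit genes in concert, through antioxidant response elements in their promoters.

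The promoters of 3 of the 4 members that fell with MS275 (below) and of PSME4, whose change had the other sign, are shown because NFE2L1 acts through such sites. The sequences are RefSeq's for build GRCh38.p14, and 35 of the 40 members matched that table. PSMA7, PSMB1, PSMB6, PSMB7 and PSMD4 did not. Each is the 250 bases before the gene's start, written 5′ to 3′ on the gene's own strand. Capitals mark matches to TGANNNNGC on either strand. This is a loose form of the core of the antioxidant response element, in which the 4 bases written N may be any base.
PSMB5 (chr14:23035221-23035470, minus strand): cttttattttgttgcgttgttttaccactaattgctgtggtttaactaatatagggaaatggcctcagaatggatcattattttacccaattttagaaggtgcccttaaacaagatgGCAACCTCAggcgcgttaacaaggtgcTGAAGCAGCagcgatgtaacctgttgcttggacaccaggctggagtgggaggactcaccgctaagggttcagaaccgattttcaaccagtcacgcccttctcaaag
PSMD8 (chr19:38374321-38374570, plus strand): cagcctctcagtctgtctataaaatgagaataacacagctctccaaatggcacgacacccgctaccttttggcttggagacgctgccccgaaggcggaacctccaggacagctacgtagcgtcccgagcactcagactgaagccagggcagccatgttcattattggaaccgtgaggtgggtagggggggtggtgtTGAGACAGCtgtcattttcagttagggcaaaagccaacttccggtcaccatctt
PSMD11 (chr17:32444260-32444509, plus strand): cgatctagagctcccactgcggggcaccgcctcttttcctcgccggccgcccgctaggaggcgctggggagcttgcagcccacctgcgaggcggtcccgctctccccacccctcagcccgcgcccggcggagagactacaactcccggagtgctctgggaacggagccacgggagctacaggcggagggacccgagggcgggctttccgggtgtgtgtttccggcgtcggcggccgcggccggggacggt
PSME4 (chr2:53970994-53971243, minus strand): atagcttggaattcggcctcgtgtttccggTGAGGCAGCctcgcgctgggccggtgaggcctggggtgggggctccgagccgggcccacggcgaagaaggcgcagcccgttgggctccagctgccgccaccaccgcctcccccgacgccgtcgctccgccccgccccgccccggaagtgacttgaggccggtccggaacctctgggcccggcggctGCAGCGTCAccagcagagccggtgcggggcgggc
PSMB5 and PSME4 each hold 2 matches and PSMD8 holds 1, while these letters do not occur in the PSMD11 window. Over windows of 300 bases, from 250 before to 50 after the start, 21 of 35 member promoters (60%) held this loose form, against 6751 of 15842 promoters of protein-coding genes (42.6%). The strict form TGACTCAGC, which fits the loose form and was searched on both strands, occurred in 0 of the 35 and in 0.461% of all. CCAAT, the box bound by NF-Y, occurred on either strand in 17 of the 35 (48.6%) and in 36.4% of all. A match is a description of the sequence and not a measured binding site.

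Per array, the median signal was between 5.09 and 5.36. Values were spread less widely on 2 arrays, the first replicates of control and of the 1 nM combination (SD 2.14 and 2.15) than on the rest (SD 2.27 to 2.37). Results that rest on these 2 narrow arrays are given with and without them. The 9 plasma cell markers had median signals from 7.72 to 12.71, and those of 6 other classes (epithelial, fibroblast, red cell, myeloid, T cell and B cell) lay between 2.59 and 7.04, with no detection call to set a floor. Some of these markers changed with the drugs. Averaged over the rapamycin levels, MS275 lowered the plasma cell markers SLAMF7 by 3.35-fold (adjusted p = 0.00591) and SDC1 by 1.67-fold (adjusted p = 0.0339), and raised the myeloid marker CSF1R by 1.69-fold (adjusted p = 0.00121). Rapamycin, averaged likewise, lowered the plasma cell marker CD38 by 2.84-fold (adjusted p = 4.83e-05). CSF1R signals were low, from 4.47 to 6.07. Of all genes 8.13% were called for averaged MS275 and 2.35% for averaged rapamycin. Changes of the other markers are not listed here. The part of the markers in the results below was not tested. The arrays measured whole cultures, in which fewer cells of a kind and less RNA per cell cannot be told apart.

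The first question was what MS275 did to the proteasome genes, whether or not rapamycin was present. Most subunit transcripts had a lower mean with MS275, and 4 passed the test. Of the 35 members, 32 had a log2 change below 0 when the effect of MS275 was averaged over 0, 1 and 10 nM rapamycin, against 45% of all genes, and the median was -0.40 against 0.02. Among the subunits of the core particle and cap, 26 of 27 lay below 0. The change passed the threshold (limma, adjusted p under 0.05 over all genes) for 4 members, and all 4 fell: PSMB5 and PSMB6 of the 20S beta ring, and PSMD8 and PSMD11 of the 19S cap. Over all genes 3.59% fell in this comparison and 8.13% changed in either direction. That is 898 genes higher and 709 lower, a split that median centring of the arrays turned to 689 and 1198, with 7 members passing. After centring 34 of 35 members and 67.9% of all genes lay below 0, and after quantile normalization 28 members and 56.5% did. The gap to all genes in this share was thus narrower under both rescalings. The medians after centring are given in the closing section. At an unadjusted p under 0.05 there were 15 of 35 members and 18.4% of all genes.

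**Figure D1:**
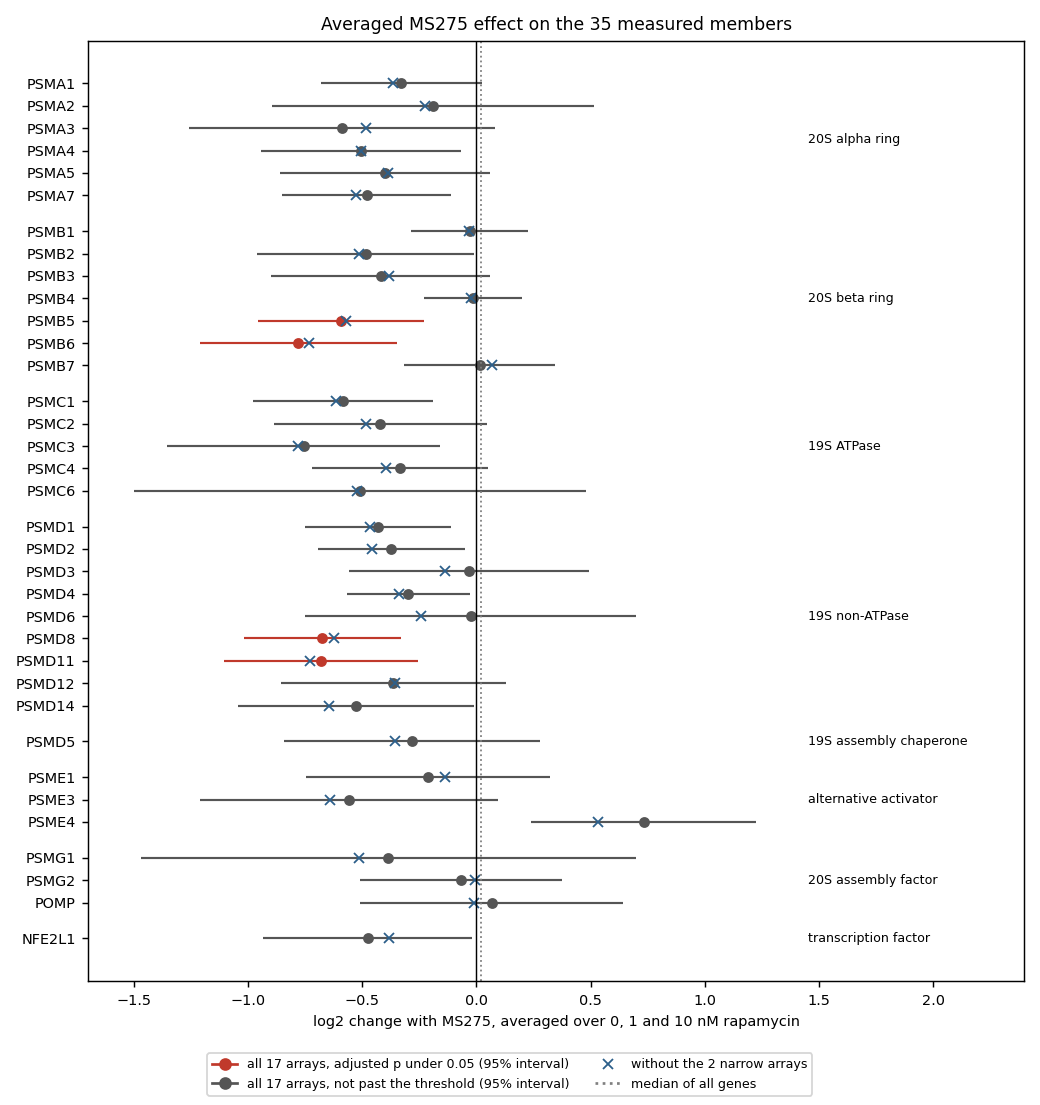
Log2 change with MS275, averaged over 0, 1 and 10 nM rapamycin (horizontal axis), of each of the 35 measured members, grouped by role. Points with lines are the fitted change and its 95% confidence interval over all 17 arrays, red where the adjusted p is under 0.05; blue crosses omit the 2 narrow arrays, and the dotted line is the median of all genes. Of the 35 points, 32 lie left of 0, and PSME4 stands apart on the right at 0.73.

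In the 20S barrel, all 6 measured alpha genes lay below 0, with a median log2 change of -0.44 and none past the threshold. PSMA7 had a change of -0.48 (adjusted p = 0.123) and PSMA4 one of -0.51 (adjusted p = 0.179). PSMB6, which carries the caspase-like site, and PSMB5, which carries the chymotrypsin-like site, fell, while PSMB7, which carries the trypsin-like site, had a log2 change of 0.01 (95% interval -0.32 to 0.34). The non-catalytic beta subunits PSMB1 and PSMB4 had changes of -0.03 (-0.29 to 0.23) and -0.02 (-0.23 to 0.20). The difference between subunits was not tested. Dimmer probe sets of PSMB7 and PSMB4, with mean signals of 6.99 and 8.56, gave changes of -0.55 and -0.50, near that of PSMB5. Brighter further probe sets of PSMB4 and PSMB1, with mean signals of 11.79 and 10.79, gave 0.05 and -0.10.

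PSMB6 signals were 11.75, 11.68 and 11.67 on the 3 control arrays and 11.52, 10.49 and 11.55 with MS275 alone. With 1 nM rapamycin they were 11.58, 11.36 and 12.07, and its combination with MS275 gave 10.56, 10.47 and 11.31. With 10 nM rapamycin they were 11.45, 11.45 and 12.24, and that combination gave 10.39 and 11.16. The 8 arrays with MS275 ran from 10.39 to 11.55 (median 10.86) and the 9 without it from 11.36 to 12.24 (median 11.67), and they overlapped only through 2 arrays of MS275 alone. The averaged log2 change was -0.78 ± 0.20 (SE), a 1.72-fold fall (adjusted p = 0.0267).

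PSMB5, the subunit bound by bortezomib, had signals of 9.90, 9.84 and 9.90 in control and 9.81, 9.15 and 9.73 with MS275. At 1 nM rapamycin the arrays read 10.04, 9.86 and 10.49 without MS275 and 9.32, 9.11 and 9.90 with it. At 10 nM they read 9.93, 9.94 and 10.81 without it and 9.21 and 9.69 with it. Every array with MS275 lay at or below 9.90 and every array without it at or above 9.84. The averaged log2 change was -0.59 ± 0.17, a 1.51-fold fall (adjusted p = 0.0441).

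In the 19S cap, all 5 measured ATPase genes and all 9 measured non-ATPase genes lay below 0, with medians of -0.51 and -0.37. PSMD8, a small subunit of the lid, had signals of 10.25, 10.05 and 10.15 in control and 9.83, 9.05 and 9.63 with MS275. At 1 nM rapamycin it read 9.61, 9.73 and 10.12 without MS275 and 8.92, 8.97 and 9.51 with it. At 10 nM it read 9.45, 9.63 and 10.25, and 8.76 and 9.41 in the combination. At each of the 3 rapamycin levels all arrays with MS275 lay below all arrays without it. The averaged change was -0.68 ± 0.16, a 1.60-fold fall (adjusted p = 0.0170), and its adjusted p was the lowest of the 35 members.

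PSMD11, a lid scaffold subunit that helps to hold the cap to the core, had signals of 10.29, 10.87 and 11.54 in control and 10.24, 9.74 and 10.47 with MS275. At 1 nM rapamycin it read 10.47, 10.30 and 11.00 without MS275 and 9.65, 9.85 and 10.38 with it. At 10 nM it read 10.35, 10.39 and 10.88 without it and 9.50 and 10.26 with it. In both control and the 1 nM combination the lowest value was the narrow array. The averaged change was -0.68 ± 0.20, a 1.60-fold fall (adjusted p = 0.0496), just inside the threshold.

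PSMC1, an ATPase of the ring, lay just outside it. Its signals were 10.59, 10.04 and 10.70 in control and 9.59, 9.25 and 9.90 with MS275, which do not overlap. At 1 nM rapamycin they were 9.80, 9.65 and 10.28 without and 9.95, 9.05 and 9.86 with MS275, and at 10 nM they were 9.83, 9.67 and 10.42 without and 9.02 and 9.72 with it. At both doses these groups overlapped. The averaged change was -0.58 ± 0.18 (adjusted p = 0.0699). PSMC3, another ATPase, had one of -0.76 ± 0.28 (adjusted p = 0.133), nearly as large as that of PSMB6 but with a wider spread.

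PSMD1, a large scaffold of the cap's base, read 10.02, 10.29 and 10.81 in control and 9.71, 9.62 and 10.26 with MS275. At 1 nM rapamycin it read 10.07, 9.89 and 10.27, and 9.69, 9.67 and 10.12 in the combination. At 10 nM it read 9.97, 10.07 and 10.48, and 9.39 and 9.89 in the combination, the pair of groups that did not overlap. The averaged change was -0.43 ± 0.15 (adjusted p = 0.104). PSMD5, a chaperone that helps to build the cap, had a change of -0.28 (adjusted p = 0.729).

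How far these calls reach depended on single arrays. With the replicate number as a block, 2462 of 19775 genes passed against 1607, and 8 members did: the same 4, PSMA4 (-0.45, adjusted p = 0.0249), PSMC1 (-0.53, adjusted p = 0.0232), PSMD1 (-0.38, adjusted p = 0.0188) and, upwards, PSME4. Without the 2 narrow arrays PSMD8 (adjusted p = 0.0389) and PSMD11 (adjusted p = 0.0253) passed, PSMB5 (0.0777) and PSMB6 (0.0582) did not, and PSMC2, PSMD14 and PSME4 did. Leaving out 1 array at a time, PSMD8 passed in 16 of 17 fits, PSMB6 in 13, PSMB5 in 5 and PSMD11 in 3. Without replicate 1 of the 10 nM combination no member passed, with adjusted p from 0.0744 (PSMD8) to 0.182 (PSMD11) for these 4. Without control replicate 1, 9 members passed, and 1 or 2 passed without any 1 of 7 further arrays. The fitted change of each of the 4 stayed below 0 in all 25 alternatives. How many of all genes passed in each fit with arrays left out is not listed here.

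The effect of MS275 can also be read at each rapamycin level from arrays that the 3 contrasts do not share. The log2 change was below 0 at 0, 1 and 10 nM rapamycin for 23 of 35 members, against 18.2% of all genes, and above 0 at all 3 for 1 member, PSME4, against 20.6% of all genes. Without the narrow arrays it was below 0 at all 3 for 27 members, against 22.7% of all genes. PSMB5 changed by -0.32 without rapamycin, by -0.69 at 1 nM and by -0.78 at 10 nM. PSMB6 changed by -0.52, -0.89 and -0.94, and PSMD8 by -0.64, -0.69 and -0.69. None of these single values passed the threshold, and whether the effect differs between rapamycin levels is tested below. The 10 nM combination has no replicate 3, the replicate highest on the core and cap genes in every group of 3 (below), while 10 nM rapamycin has one. Without replicate 3 of 10 nM rapamycin the averaged change was -0.50 for PSMB5 (limma, adjusted p = 0.0740) and -0.69 for PSMB6 (adjusted p = 0.0535). For PSMD8 it was -0.60 (adjusted p = 0.0324) and for PSMD11 -0.62 (adjusted p = 0.101). Among the 12 members not below 0 at all 3 levels were PSMB1, PSMB4 and PSMB7, along with POMP, which helps to assemble the core. These 4 and PSME4 were not below 0 at all 3 levels without the narrow arrays either, while the other 7 were. PSMB3, PSME1 and PSMG2 went the other way and were below 0 at all 3 levels only with the narrow arrays.

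**Figure D2:**
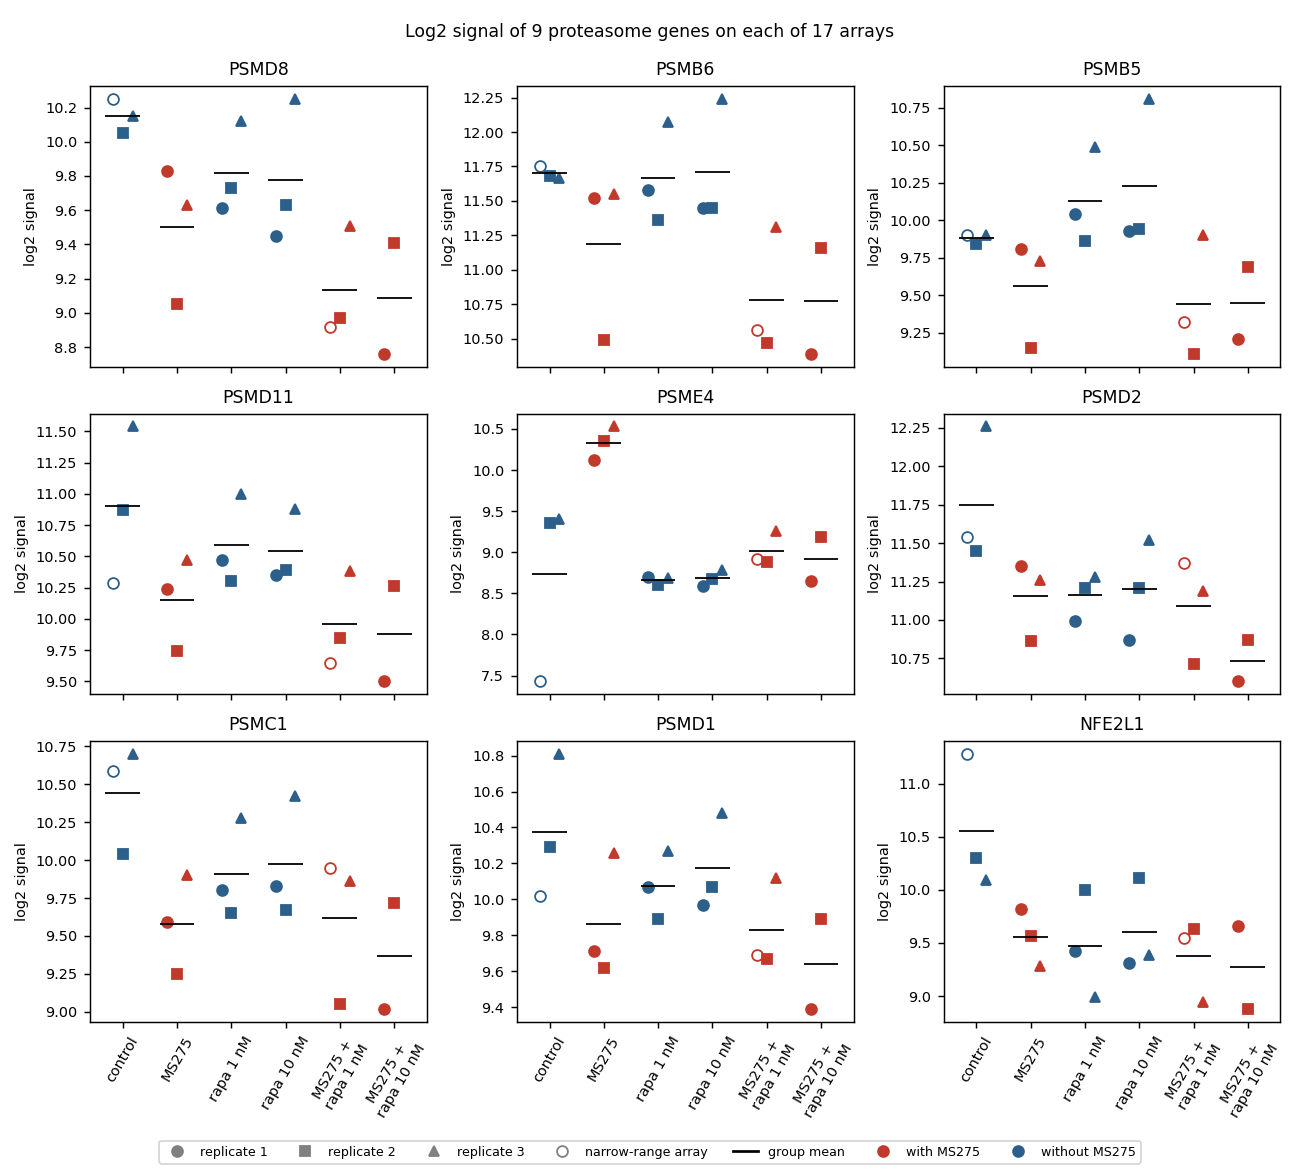
Log2 signal (vertical axis) of the members named in every array, by treatment group. Circles, squares and triangles are replicates 1, 2 and 3, open circles the narrow arrays, and bars the group means, with MS275 in red. PSMD8 sits lowest in the 2 combination groups, PSME4 highest with MS275 alone, and NFE2L1 highest in control.

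Each treatment was next set against untreated cells, which are the same 3 control arrays in all 5 comparisons. No member passed the threshold in any of them. MS275 gave a median log2 change of -0.20 over the members, and 1.49% of all genes were called. Of the members 23 of 35 lay below 0, against 56.9% of all genes. Rapamycin alone gave medians of 0.04 at 1 nM, where 0.101% of all genes were called, and 0.01 at 10 nM, where 0.435% were. The combinations gave -0.44 at 1 nM (2.7% of all genes called) and -0.37 at 10 nM (3.3% called). There 29 and 25 of 35 members lay below 0, against 47% and 59.7% of all genes. The medians over all genes lay between -0.12 and 0.02. At an unadjusted p under 0.05 the members numbered 6 for MS275, 3 and 2 for 1 and 10 nM rapamycin, and 7 and 9 for the 1 and 10 nM combinations. The shares of all genes at that p were 10.8%, 8.05%, 6.96%, 12.6% and 14.2%, so the member counts for rapamycin were near the background.

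These medians moved with control replicate 1, on which 17 of the 27 core particle and cap genes had their lowest control value. Without the 2 narrow arrays the medians were -0.50 with MS275, -0.27 and -0.28 with 1 and 10 nM rapamycin, and -0.57 and -0.68 with the combinations. The median for rapamycin alone thus changed sign with these arrays. Single genes show the size of the gap. PSMG1, a chaperone of the alpha ring, read 4.72 on control replicate 1 against 8.60 and 8.02 on the other control arrays, and 5.31 on the narrow array of the 1 nM combination against 7.45 and 8.02. PSMC6, an ATPase, read 6.05 against 9.33 and 8.71 in control, and 5.56 against 8.51 and 8.29 in the 1 nM combination.

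**Figure D3:**
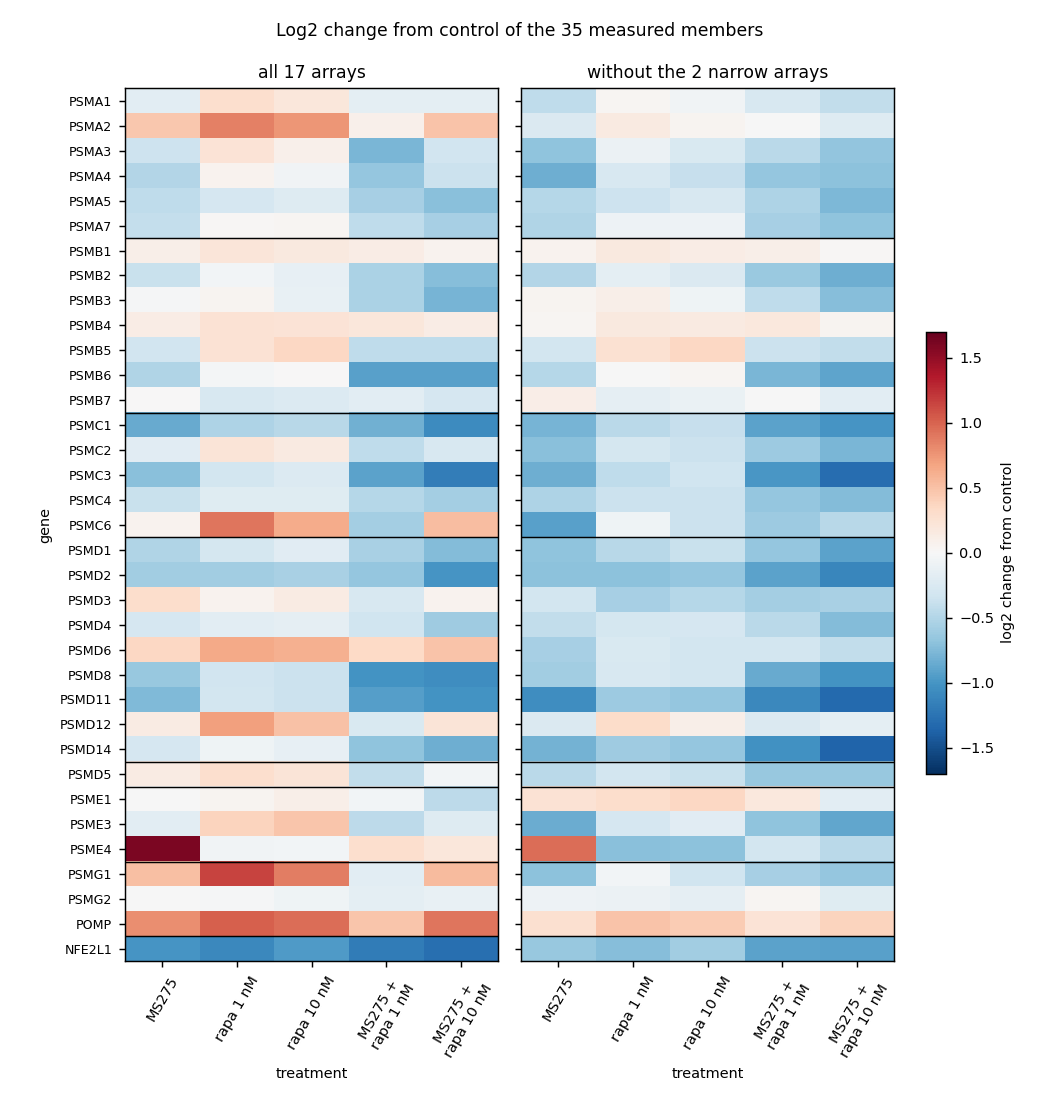
Log2 change from control (colour) of the 35 measured members (rows, ordered by role) in the 5 treatments (columns), over all 17 arrays on the left and without the 2 narrow arrays on the right. Blue rows in the combinations are most of the 19S genes; PSMA2, PSMC6, PSMD6 and PSMG1 are red under rapamycin on the left and paler or blue on the right.

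PSMD8 came closest to a call in the 1 nM combination. Its log2 change from control was -1.02 ± 0.27 with the 1 nM combination (adjusted p = 0.0628, and 0.0216 when replicates were blocked) and -1.06 ± 0.30 with the 10 nM one (adjusted p = 0.0756; 0.0519 with the block). At both doses all combination arrays lay below all control arrays. The block carries less here for the 10 nM combination, whose replicate numbers did not pair with those of control in the data (correlations of 0.01 and 0.31). For PSMD11 the changes were -0.94 (adjusted p = 0.191; 0.0229 with the block) and -1.02 (adjusted p = 0.186).

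PSMD2, the other large scaffold of the base, read 11.54, 11.45 and 12.26 in control and 11.35, 10.86 and 11.26 with MS275. It read 10.99, 11.21 and 11.28 with 1 nM and 10.87, 11.21 and 11.52 with 10 nM rapamycin. The 1 nM combination gave 11.37, 10.71 and 11.19 and the 10 nM combination 10.60 and 10.87. Of 14 treated arrays, 13 lay below all 3 controls. The log2 change with the 10 nM combination was -1.01 ± 0.28 (adjusted p = 0.0693; -0.89 and 0.0476 with the block), and those with the single drugs were -0.59 for MS275, -0.59 for 1 nM and -0.55 for 10 nM rapamycin.

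NFE2L1, the transcription factor, had the lowest log2 change of the 35 members in each of the 5 treatments against control, though none passed. Without the 2 narrow arrays it kept that place with 1 nM rapamycin alone. In the other 4 treatments PSMD11 and further members were then lower than it. It read 11.28, 10.30 and 10.09 in control, and 9.82, 9.57 and 9.28 with MS275. It read 9.42, 10.00 and 8.99 with 1 nM and 9.31, 10.11 and 9.39 with 10 nM rapamycin, and 9.55, 9.63 and 8.94 and then 9.66 and 8.88 in the 1 and 10 nM combinations. Of 14 treated arrays, 13 lay below every control array. The log2 changes from control were -1.0 ± 0.36 (adjusted p = 0.243) with MS275, -1.09 (adjusted p = 0.369) with 1 nM rapamycin and -0.96 (adjusted p = 0.516) with 10 nM. With the combinations they were -1.19 ± 0.36 (adjusted p = 0.108; 0.0300 with the block) and -1.29 ± 0.40 (adjusted p = 0.107; -1.47 and 0.0170 with the block). The narrow control array held the highest NFE2L1 value. Without the narrow arrays the 5 changes ran from -0.60 to -0.93 and none passed.

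PSME4 encodes PA200, an activator that caps the 20S core in place of the 19S cap and is known for degrading acetylated histones. Its averaged MS275 change, 0.73 ± 0.23 (adjusted p = 0.0702), had the opposite sign to that of 32 members, and its signals were highest with MS275 alone. They were 10.12, 10.35 and 10.53 with MS275 against 7.43, 9.36 and 9.40 in control. Rapamycin gave 8.70, 8.60 and 8.69 at 1 nM and 8.59, 8.68 and 8.78 at 10 nM. The 1 nM combination gave 8.92, 8.88 and 9.26, and the 10 nM combination 8.65 and 9.19. The lowest array with MS275 alone lay above every array of the other 5 groups. Both combinations lay below MS275 alone, and their means were 0.35 and 0.24 above those of 1 and 10 nM rapamycin (adjusted p = 0.669 and 1.0).

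For PSME4 the log2 change with MS275 against control was 1.60 ± 0.38 (adjusted p = 0.0547), just short of the threshold. The same contrast was 0.96 ± 0.18 without the 2 narrow arrays (adjusted p = 0.0188), and passed with the replicate block (adjusted p = 0.0184). It also passed without any 1 of the 3 control arrays (0.96, 1.92 and 1.94, with adjusted p of 0.0218, 0.0382 and 0.0428). It did not pass when any 1 of the other arrays was left out. The adjusted p then ran from 0.0613, without replicate 1 of the 1 nM combination, to 0.212, without MS275 replicate 3. The 1 nM combination differed from MS275 alone by -1.31 ± 0.38 (adjusted p = 0.537) and the 10 nM combination by -1.41 ± 0.43 (adjusted p = 0.393). Without the narrow arrays these were -1.27 ± 0.18 (adjusted p = 0.0287) and -1.41 ± 0.18 (adjusted p = 0.00574). The gene's 3 probe sets gave changes with MS275 of 1.60, 1.60 and 1.33, and from MS275 to the 10 nM combination of -1.41, -1.25 and -1.35. All 3 read the same RNA samples.

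The other alternative activators differed from PSME4 in sign. PSME3, which encodes the nuclear activator PA28 gamma, had an averaged MS275 change of -0.56 (adjusted p = 0.384), and PSME1, which encodes PA28 alpha, one of -0.21 (adjusted p = 0.819). Of the 20S assembly factors, POMP, which helps to join the half-barrels, had a change of 0.07, PSMG2 one of -0.07 and PSMG1 one of -0.39, none past the threshold.

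Whether rapamycin changed the genes was asked by averaging both doses with and without MS275 against the groups with no rapamycin. No member passed, while 2.35% of all genes did (limma), and 4 of 35 members and 11% of all genes had an unadjusted p under 0.05, a share near the background. The members' median was -0.09 against -0.04. The 4 role medians of the core and cap lay between -0.19 and -0.01. PSME4 had the lowest value, -0.71 ± 0.24 (adjusted p = 0.205), which was -1.02 ± 0.11 without the narrow arrays (adjusted p = 0.000604). NFE2L1 followed with -0.63 (adjusted p = 0.233). The 2 doses could not be told apart: no gene of any kind passed between them, either without MS275 (24 of all genes at an unadjusted p under 0.05, none of them a member) or with it (152, none a member), so 0% of genes were called. The members' differences between the doses ran from -0.29 to 0.13 without MS275 and from -0.39 to 1.10 with it.

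Each combination was also set against its drugs alone. No member passed in the 4 comparisons. Against MS275, the median was -0.18 for the 1 nM combination (0.106% of all genes called) and -0.20 for the 10 nM combination (0.253% called). Against rapamycin it was -0.49 at 1 nM (1.23% called) and -0.41 at 10 nM (0.435% called). In these 33 and 34 of 35 members lay below 0, against 36.8% and 52.5% of all genes. At an unadjusted p under 0.05 the members numbered 1, 1, 4 and 3 in that order, against 4.44%, 4.5%, 12.4% and 7.34% of all genes, which is near the background. The medians leaned on single arrays of the combinations. Without replicate 1 of the 10 nM combination its median was 0.13 against MS275 and -0.04 against rapamycin, and without replicate 2 it was -0.53 and -0.73. For the 1 nM combination the medians were -0.04 and -0.32 without replicate 1, and -0.44 and -0.74 without replicate 3. Leaving out 1 array moved the genes called against MS275 over 3 to 31 (1 nM) and 3 to 77 (10 nM), and against rapamycin over 80 to 413 and 11 to 157, each time most without control replicate 1. These comparisons share arrays with each other, and the differences between them were not tested.

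The interaction term asks whether a combination departed from the sum of the log2 effects of its drugs. No gene of the 19775 passed at either dose (0% called), with 916 and 194 genes at an unadjusted p under 0.05, of which 1 was a member at each dose. The members' median interaction was -0.23 at 1 nM and -0.21 at 10 nM, and became 0.22 and 0.04 without the narrow arrays. The median 95% interval of a member's interaction reached 1.083 to either side at 1 nM and 1.149 at 10 nM, so a departure of 2-fold was within the interval for most members. For PSME4 the interactions were -1.25 ± 0.54 (adjusted p = 0.682) and -1.37 ± 0.57 (adjusted p = 1.0).

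Replicates of 1 group lay apart on the subunit genes. Taking for each array the median deviation of the 27 core and cap genes from their means over all arrays, the values were -0.03, 0.35 and 0.43 in control and 0.01, -0.35 and 0.21 with MS275. They were 0.13, 0.01 and 0.56 with 1 nM rapamycin and -0.48, -0.35 and 0.12 in its combination. With 10 nM rapamycin they were -0.01, 0.03 and 0.52, and in its combination -0.60 and 0.01. Replicate 3 was the highest in all 5 groups of 3. The 10 nM combination has no replicate 3, so its comparisons and the averaged MS275 effect set a group without that replicate against groups with it. The part of this in those changes was not tested. Over the 10063 genes with a mean signal of 6 or more, the same measure stayed between -0.10 and 0.12. On these genes too replicate 3 was highest in control (0.11), 1 nM rapamycin (0.06), its combination (0.10) and 10 nM rapamycin (0.12). With MS275 alone it read 0.08, against 0.09 for replicate 1. Between groups of 3, the median interval of a member reached 0.766 to either side, against 0.539 over all genes.

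**Figure D4:**
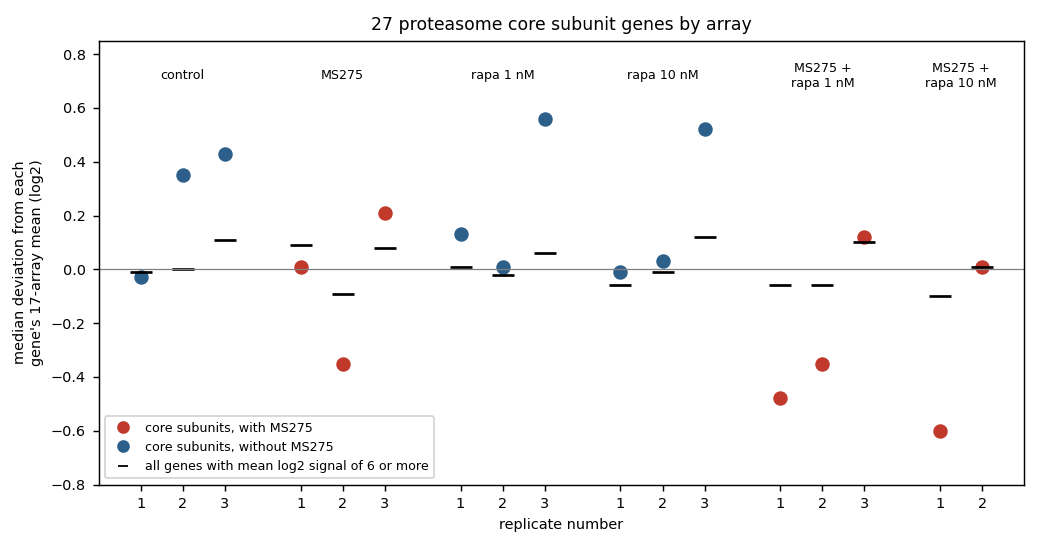
Median deviation (log2, vertical axis) of the 27 measured core and cap genes from their means over 17 arrays, for each array by group, with MS275 in red. Black bars show the same over genes with a mean signal of 6 or more. Replicate 3 is highest in each group of 3, and the lowest array, at -0.60, is replicate 1 of the 10 nM combination.

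Members measured by several probe sets allow a further look. For 12 of 20 such members, every probe set had the same sign of the averaged MS275 change. Of 23 further probe sets with a mean signal of 6 or more, 20 had the sign of the probe set used. For NFE2L1 the 3 probe sets gave changes with MS275 against control of -1.0, -0.87 and -0.85.

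The genes around the particle were described from 6 further lists under the averaged effect of MS275, to be read against the 8.13% of all genes called. Of the tissue forms of the core, such as the immunoproteasome subunits, 4 of 5 genes were measured and none passed. PSMB10, the inducible counterpart of PSMB7, had a change of -0.49 (adjusted p = 0.339), and PSMA8, a testis alpha subunit, one of 0.25 (adjusted p = 0.497). Of 17 other particle-bound and assembly factors none passed, and 13 lay below 0 (median -0.24). ECPAS, an adaptor that binds the 26S particle, had the lowest adjusted p among them (-0.79 ± 0.26, adjusted p = 0.0825), followed by PSMG4, an assembly chaperone (-0.75, adjusted p = 0.286).

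Among genes that control NFE2L1 or its relatives, 3 of 14 measured fell and none rose (median -0.28). KEAP1, the adaptor that marks NFE2L2 for degradation, fell by 0.84 ± 0.12 on the log2 scale (adjusted p = 0.000512). HCFC1, a partner of the transferase OGT, which modifies NFE2L1, fell by 0.67 ± 0.11 (adjusted p = 0.00154). BTRC, a ubiquitin ligase adaptor for NFE2L1, fell by 0.38 ± 0.10 (adjusted p = 0.0349). KEAP1 was also lower than control in each group with MS275, by 2.01-fold with MS275 alone and by 2.12-fold and 2.25-fold in the 1 and 10 nM combinations (adjusted p from 0.00805 to 0.0216).

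Of the genes that supply or shuttle ubiquitin, 1 of 9 measured fell: UBQLN2, which carries tagged proteins to the proteasome, by 1.23 ± 0.29 (adjusted p = 0.0160). Of the chaperones of protein stress, 2 of 11 fell and 1 rose (median -0.48). HSPD1, the mitochondrial chaperonin, fell by 0.59 ± 0.13 (adjusted p = 0.0102). SQSTM1, the autophagy receptor p62, fell by 0.58 ± 0.15 (adjusted p = 0.0288). HSPB1, a small heat shock protein, rose by 0.94 ± 0.26 (adjusted p = 0.0341). Of the targets of NFE2L2, a relative of NFE2L1, 2 of 12 fell with MS275 (median -0.13): TKT, a pentose phosphate enzyme, by 0.49 ± 0.13 (adjusted p = 0.0264), and TXNRD1, which reduces thioredoxin, by 0.81 ± 0.21 (adjusted p = 0.0267).

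Under the averaged effect of rapamycin the NFE2L2 targets were the only one of the 6 lists with a called gene, 2 of 12, both lower. SLC7A11, the cystine transporter, fell by 1.75 ± 0.24 (adjusted p = 0.000953) and TKT by 0.68 ± 0.13 (adjusted p = 0.0121). SLC7A11 was lower than control by 5.56-fold and 5.61-fold with 1 and 10 nM rapamycin (adjusted p = 0.0284 and 0.0130), and by 4.14-fold and 3.53-fold in the combinations (adjusted p = 0.00785 and 0.0289). No member of the proteasome set reached the threshold in those same comparisons.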

How the data were processed

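Per the labels' protocols, total RNA was isolated with TRIzol and labelled with biotin after linear amplification. The authors deposited 1 log2 value per probe set and array, made with affy and RMA per the submitters' processing notes. Versions were not given in the sources used here. No further normalization was applied. Of 54613 probe sets, 41091 had 1 gene symbol in the platform annotation, 1801 several and 11721 none, and 41037 of the singly named ones matched a RefSeq table (GRCh38.p14) by Entrez ID. This gave 19775 genes. No detection calls were used, so signal over background is not known.

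Group means were fitted to all 17 arrays in 1 model with limma 3.58.1 in R 4.3.3 (lmFit, contrasts.fit and eBayes), and each of 15 comparisons was adjusted by Benjamini-Hochberg over the whole table (threshold 0.05). The fit was also run on simulated data with independent errors and no narrow arrays, so that run cannot speak for the calls on these arrays. Errors of log2 changes are standard errors. The members, lists and comparisons were chosen with earlier results of these data known. Members are given in every array if called in a comparison, filled to 8 by smallest adjusted p, with PSMB5 and NFE2L1 always given. Of further lists, called genes are named, at most 4, or the 2 with the smallest adjusted p.

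Replicate numbers recur across groups with no stated meaning. In 7 of 10 pairs of groups of 3, deviations of all same-numbered arrays from their group means correlated over genes at 0.29 or more, so results with a replicate block are given where it changes a call. This pairing comes from the data. The 3 pairs that failed include 10 nM rapamycin, which paired with 1 nM rapamycin only (correlations from 0.31 to 0.85). The 10 nM combination, with 2 shared numbers, was not paired with any of the 5 other groups (correlations from -0.74 to 0.39). Block values for the 10 nM combination thus rest on numbers that the data do not bear out, and those for 10 nM rapamycin do so in part. Other alternatives left out arrays, weighted them, rescaled them, averaged probe sets, filtered low signals (mean under 6), used a trended prior, or fitted only the groups compared.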

Additional observations from a re-analysis of the deposited data

How the results depend on the processing

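The number of arrays limits what can be seen: the median 95% interval of a member's log2 change reached 0.766 to either side between groups of 3 and 0.46 for the averaged MS275 effect. No fitted change reversed its direction while called. Members called under the averaged MS275 effect numbered 4 in the reported fit, 8 with the replicate block, 9 with array weights, 7 with median centring and 2 with a trended prior, and 0 to 9 when 1 array was left out: 0 without replicate 1 of the 10 nM combination, 9 without control replicate 1, 1 without replicate 3 of either rapamycin group or replicate 2 of the 1 nM combination, 2 without MS275 replicates 2 or 3, 1 nM rapamycin replicate 1 or 1 nM combination replicate 1, and 3 or 4 without each of the others. Their median lay between -0.50 (median centring) and -0.33 (quantile normalization) in the alternatives that kept every array. Median centring moved the median of all genes there from 0.02 to -0.08, against which the members stayed lower. Over all genes this comparison called 1607, and 2462 with the block or 3156 with array weights. The counts of all genes with the trended prior and with 1 array left out are not listed here. Comparisons with 0 members called gained some in places. For most of these settings the genes called over all genes are not listed here, so the gains are not set against the background. With the replicate block the comparisons that gained members were MS275 (1), the 1 nM combination (3) and the 10 nM combination (2), each against control. Without the narrow arrays there was 1 for MS275 and 1 for the 10 nM combination against control, 1 for each combination against MS275, and 1 for averaged rapamycin. With array weights there were 6 for MS275, 8 and 6 for 1 and 10 nM rapamycin, 3 and 7 for the 1 and 10 nM combinations against control, 1 for the 10 nM combination against MS275 and 3 for averaged rapamycin. The weights ran from 0.114 for control replicate 1 to 11.303 for replicate 1 of 1 nM rapamycin. Control replicate 3 had 2.915, so 1 array weighed most in control and in 1 nM rapamycin. Quantile normalization gave 1 for MS275 and for each combination against control, median centring 1 and 2 for the combinations, and averaging all probe sets 1 for MS275, 1 for the 10 nM combination and 1 for averaged rapamycin. Leaving out 1 array gave 0 to 1 for MS275 and the 1 nM combination against control, for each combination against MS275 and for averaged rapamycin. Over all genes, fitting only the groups compared called 9 for MS275 against 295, and 0 for each rapamycin dose (20 and 86) and each combination against control (533 and 652). Array weights called 1504 for MS275, 2804 and 1951 for 1 and 10 nM rapamycin, and 1400 and 1555 for the combinations. Except where a setting uses fewer arrays, the cause was not tested.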
